A study of Mus musculus with 2 samples.

Results

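Mitochondrial carriers are the proteins that move metabolites, nucleotides and cofactors across the inner mitochondrial membrane. The genes taken here are those whose single platform symbol starts with Slc25a and a number, together with Ucp1, Ucp2 and Ucp3, so the rule uses names and no measured value. The rule found 48 of the 22180 genes that the array measured with a probe set of their own. Ucp2 had no probe set under its symbol in the annotation used here, so it was not analysed. Each of the 48 genes had 1 probe set with a symbol of its own, and all 48 are protein-coding in RefSeq. The label calls them inner membrane carriers, but textbook knowledge places Slc25a17 in the peroxisome and Slc25a46 on the outer mitochondrial membrane.

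The RNA came from whole kidney of male mice, Iah1-WT or with a systemic knockout of Iah1 (Iah1-KO), a gene for an esterase related to a yeast enzyme that hydrolyses isoamyl acetate. Both groups had standard chow up to 6 weeks of age, then 12 weeks of high-fat feeding in single cages, and 4 hours without food before they were killed. RNA of 3 mice was pooled for 1 Affymetrix array per genotype, so every value below is from 1 pool, no test between genotypes is possible and the spread between mice is unknown. In whole tissue, fewer cells of a type and less RNA per cell cannot be told apart. The sources used here do not say which part of Iah1 was deleted. The Iah1-WT pool is called wild type below and the Iah1-KO pool the knockout. The probe set of Iah1 read 9.09 in wild type and 3.60 in the knockout, below that array's median of 4.03, as the genotype label says.

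Most carriers have a common build of repeated membrane-spanning modules and exchange one substrate for another. They link the oxidation of fuel in the matrix to the cytosol: ADP enters and ATP leaves, phosphate is imported, citrate, malate and oxoglutarate shuttle carbon and reducing equivalents, and acylcarnitine brings in fatty acids. Kidney tubules, above all the proximal tubule, are rich in mitochondria because they make the ATP that drives salt and solute reabsorption. The proximal tubule list was bright on both arrays, with all 12 of its genes between 10.34 and 12.76 in wild type and between 10.37 and 12.67 in the knockout.

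Levels are log2 RMA values of a probe set. A difference is the Iah1-KO value minus the Iah1-WT value, so 1 unit is a doubling. A gene was counted as measurable when its higher value was at least 6, the expression floor. This held for 7671 genes, 34.6% of the 22180, and for 33 of the 48 carriers, 68.8%. All 33 were above the floor in both pools, so none was let in by 1 pool alone. Among all 22180 genes, 19 carriers were in the brightest 10% of the Iah1-WT array and 19 in that of the Iah1-KO array. Probe sets bind their targets with different strength, so a rank is the brightness of a probe set within its array and not an order of transcript amounts.

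As a group the carriers were nearly the same in both pools. The differences of the 33 measurable carriers had a median of 0.02, with 19 above 0 and 14 below. Over all 7671 genes the median was 0.01, with 4016 above 0 and 3653 below. The differences of the carriers reached from -0.38 (Slc25a32) to 0.27 (Slc25a22). Within 0.1 of 0 were 18 of 33 carriers (54.5%), against 54.2% of all measurable genes. At a threshold of 1.2-fold, 1 carrier was higher in the knockout (Slc25a22), where 5.36% of all measurable genes were, and 1 was lower (Slc25a32), where 3.77% were. At 1.5-fold 0 carriers were higher and 0 lower, against 0.222% and 0.209% of all measurable genes. These shares are near or below the background, so the counts are no result about the carriers.

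**Figure D1:**
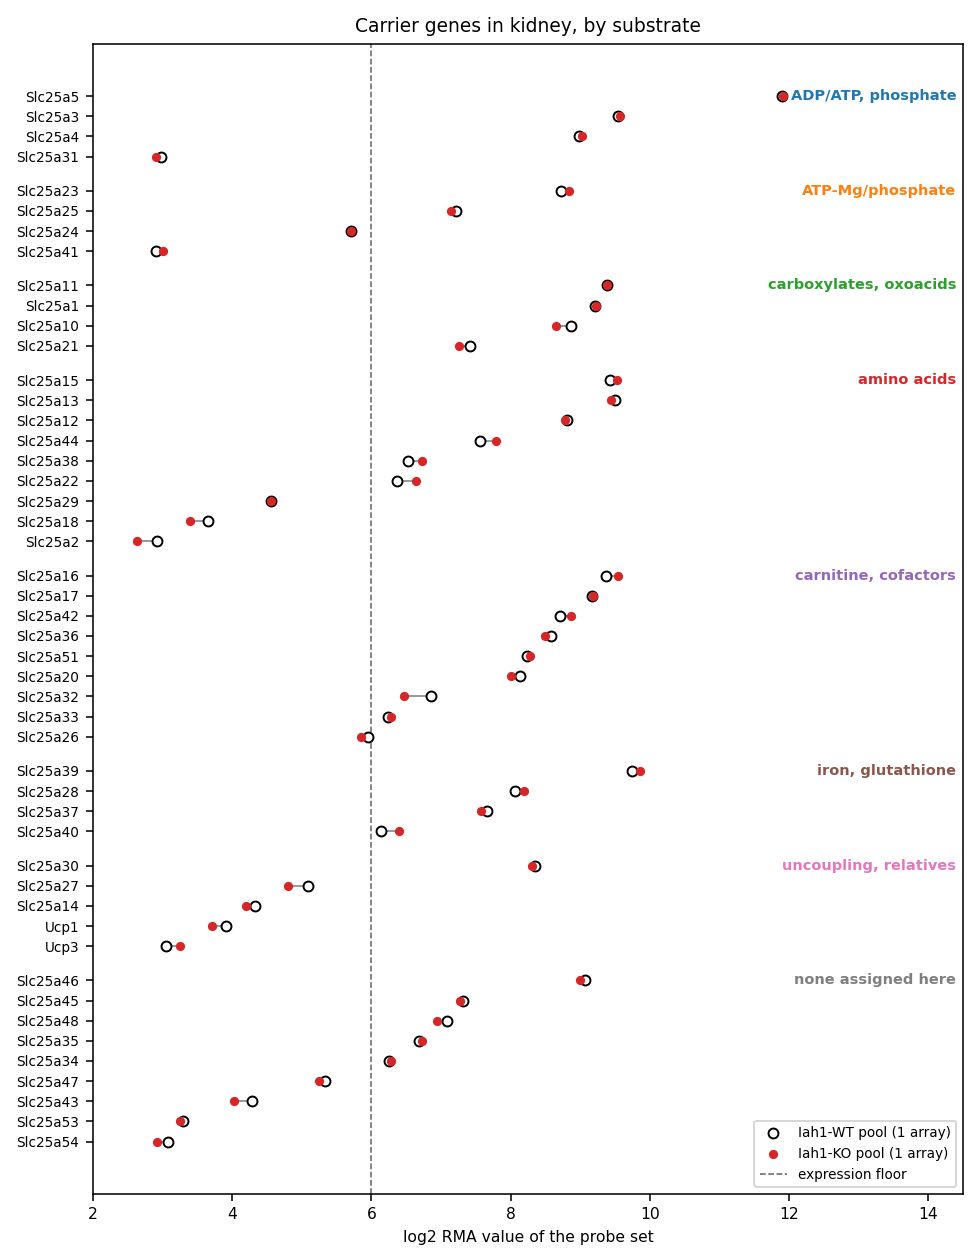
Log2 RMA value (horizontal axis) of each of the 48 carrier genes in the Iah1-WT pool (open circles) and the Iah1-KO pool (red dots), 1 array each, grouped by substrate; the dashed line is the expression floor of 6. The 2 symbols of a gene lie close together in every group, and the widest gap among genes to the right of the line is that of Slc25a32, from 6.86 to 6.47.

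Promoter sequence, which the naming rule did not use, was described by the motifs it holds, with no test. RefSeq promoter windows (GRCm38.p6, 250 bases before to 50 bases after a start) were matched for 38 of the 48 genes, with 48 windows in all. Slc25a2, Slc25a26, Slc25a27, Slc25a32, Slc25a35, Slc25a37, Slc25a41, Slc25a44, Slc25a46 and Slc25a51 had no entry. The GC box, searched as GGGCGG on both strands, was in 29 of the 34 windows of measurable carriers (85.3%), in 9 of the 14 of the carriers below the floor (64.3%), in 64.7% of the 7771 windows of all measurable genes and in 35.7% of all 32851 windows. The CCAAT box, searched as CCAAT on both strands, was in 19 of those 34 windows (55.9%), in 3 of the 14 (21.4%), in 36.7% for measurable genes and in 37.4% of all windows. TATAAA was in 1 of the 34 (2.94%), in 1 of the 14 (7.14%), in 7.10% for measurable genes and in 13.6% of all windows. CACGTG, an E box, was in 5 of the 34 (14.7%), in 3 of the 14 (21.4%), in 10.9% for measurable genes and in 7.15% of all; both were searched on both strands. A match is a run of letters and not a site shown to be bound, and windows of 1 gene can overlap.

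The 250 bases before the first listed start are shown for 3 measurable carriers, those at the ends of the difference scale among the measurable carriers with an entry: Slc25a22 and Slc25a40, with the highest differences, and Slc25a10, with the lowest. They lie at chr7:141437875-141438124 on the minus strand, chr5:8422588-8422837 on the plus strand and chr11:120491587-120491836 on the plus strand. Each is written 5′ to 3′ on the strand of its gene, and capitals mark GC boxes in either orientation.
Slc25a22: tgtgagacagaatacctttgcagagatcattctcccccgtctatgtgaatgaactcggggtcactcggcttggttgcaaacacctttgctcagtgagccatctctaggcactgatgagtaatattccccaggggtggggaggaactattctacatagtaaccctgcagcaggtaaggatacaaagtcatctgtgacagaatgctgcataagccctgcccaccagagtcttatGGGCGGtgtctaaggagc
Slc25a40: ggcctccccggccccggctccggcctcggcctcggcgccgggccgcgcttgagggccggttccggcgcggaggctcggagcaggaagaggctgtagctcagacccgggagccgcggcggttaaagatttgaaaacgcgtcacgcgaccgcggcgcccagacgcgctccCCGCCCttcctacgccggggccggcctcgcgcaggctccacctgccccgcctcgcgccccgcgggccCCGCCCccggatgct
Slc25a10: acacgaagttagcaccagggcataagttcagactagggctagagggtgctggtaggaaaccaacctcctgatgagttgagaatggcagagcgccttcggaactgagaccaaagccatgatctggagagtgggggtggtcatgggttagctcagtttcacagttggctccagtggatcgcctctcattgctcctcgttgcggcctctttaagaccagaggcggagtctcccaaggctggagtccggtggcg
Slc25a22 held 1 GC box, starting 18 bases before the start. Slc25a40 held 2, at 82 and 15 bases before it, in a stretch of 78.0% G and C with 40 CG pairs. Slc25a10 held 0 in a stretch of 56.0% G and C with 9 CG pairs.

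The carriers that serve ATP production directly differed little, with a median size of difference of 0.02 over 3 measurable genes. Slc25a5, the ADP/ATP carrier of most tissues, was at 11.89 in wild type and 11.91 in the knockout, a difference of 0.01. Its probe set ranked 38 of 22180 in brightness on the Iah1-WT and 36 on the Iah1-KO array. Slc25a4, the ADP/ATP carrier best known from heart and muscle, was at 8.98 and 9.03, ranks 1047 and 993, with a difference of 0.05. Slc25a3, which imports the phosphate that ATP synthase needs, was at 9.54 and 9.56, a difference of 0.02. Each of these 3 differences was smaller than the spread of genes of like brightness, given as a robust SD over the 500 nearest genes and equal to 0.10, 0.09 and 0.09. Slc25a31, the ADP/ATP carrier of the testis, was below the floor at 2.97 and 2.91.

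The ATP-Mg/phosphate carriers, which adjust the total nucleotide pool of the matrix, gave 2 measurable members. Slc25a23 was at 8.73 in wild type and 8.84 in the knockout, a difference of 0.12. Slc25a25 was at 7.21 and 7.15, a difference of -0.06, so the paralogs lay on either side of 0. Slc25a24 read 5.70 in both pools and Slc25a41 read 2.90 and 3.005, both below the floor.

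Of the 4 carriers of di- and tricarboxylates, Slc25a10 differed most. This dicarboxylate carrier exchanges malate and succinate for phosphate. It was at 8.87 in wild type and 8.65 in the knockout, a difference of -0.22 or 14.15% less signal. That is 2.03 robust SDs of genes of like brightness and rank 1076 of 7671 in size of difference, and its brightness rank was 1163 in wild type and 1410 in the knockout. Slc25a21, the oxoadipate carrier of lysine breakdown, was at 7.42 and 7.26, a difference of -0.16. The citrate carrier Slc25a1, which supplies cytosolic acetyl-CoA for lipid synthesis, was level at 9.21 and 9.23. So was Slc25a11, the oxoglutarate/malate carrier, at 9.38 in both pools. The difference of Slc25a11, -0.01, is above 0 after the loess correction, as for no other of the 33 genes.

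Amino acid carriers held the highest difference of the 33, with a median of 0.15 over 6 measurable genes, 4 above 0 and 2 below. Slc25a22, a glutamate carrier that moves glutamate with a proton, was at 6.37 in wild type and 6.64 in the knockout. The difference of 0.27 is 1.90 robust SDs and 20.4% more signal, just inside the 1.2-fold threshold. It was just outside after centring on the median of all genes or after loess. Its brightness rank was 6377 in wild type and 5706 in the knockout. Slc25a44, a carrier of branched-chain amino acids, was at 7.56 and 7.78, a difference of 0.22. Slc25a38, the glycine carrier needed for the first step of heme synthesis, was at 6.53 and 6.72, a difference of 0.19.

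The other measurable amino acid carriers differed less. Slc25a15, the ornithine carrier of the urea cycle, was at 9.43 and 9.53, a difference of 0.11. The aspartate/glutamate carriers of the malate-aspartate shuttle, Slc25a12 (aralar) and Slc25a13 (citrin), were at 8.80 and 8.79, and at 9.50 and 9.44. Their differences, -0.02 and -0.05, were within 1 robust SD. With a floor of 7 the median of the group was 0.05, and with no floor it was 0.01, since Slc25a18 (a second glutamate carrier, 3.66 and 3.40), Slc25a2 (a second ornithine carrier, 2.92 and 2.63) and Slc25a29 (a carrier of basic amino acids, 4.55 and 4.56) then entered. The 2 glutamate carriers thus pointed in opposite directions, 0.27 and -0.26, but Slc25a18 was below the medians of both arrays, 4.05 and 4.03, so its signal may be background.

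The cofactor carriers held the lowest difference. Slc25a32, a carrier of folate and flavin adenine dinucleotide encoded on chromosome 15, was at 6.86 in wild type and 6.47 in the knockout. The difference of -0.38 is 23.3% less signal, 2.34 robust SDs, and rank 222 of 7671. Only Slc25a32 and Slc25a10 of the 33 carriers, 6.06%, were past 2 robust SDs, against 6.57% of all measurable genes. Within 1 robust SD lay 18 of the 33, 54.5%, against 66.6% of all measurable genes. The brightness rank of the Slc25a32 probe set was 5098 on the Iah1-WT and 6181 on the Iah1-KO array.

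The next lowest of this group was Slc25a20, the carnitine/acylcarnitine carrier through which long-chain fatty acids enter the matrix and a known target of the lipid-sensing receptor PPAR alpha. It was at 8.14 in wild type and 8.01 in the knockout, a difference of -0.13 beside a robust SD of 0.11, and its rank was 2157 and 2390. Slc25a36, a pyrimidine nucleotide carrier, was at 8.58 and 8.50, a difference of -0.08. On the other side of 0, Slc25a16, linked to coenzyme A, was at 9.38 and 9.55 with a difference of 0.17. Slc25a42, the coenzyme A carrier, was at 8.72 and 8.87 with a difference of 0.15. Each was higher in the knockout by less than 2 robust SDs.

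The rest of this group was level. Slc25a51, the carrier of the coenzyme NAD, was at 8.24 and 8.27. The peroxisomal Slc25a17, which carries coenzyme A and related cofactors, was at 9.17 and 9.18. Slc25a33, the other pyrimidine nucleotide carrier, was at 6.24 and 6.28. Slc25a26, which imports the methyl donor S-adenosylmethionine, lay just below the floor at 5.95 and 5.85. The median of the 8 measurable genes of this group was 0.02.

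Among carriers tied to iron and glutathione, 3 of 4 were higher in the knockout, with a median of 0.12. Of all 7671 measurable genes, 4016 were higher. Each of the 4 differences was smaller than 2 robust SDs. Slc25a40, one of the glutathione carriers, was at 6.14 in wild type and 6.39 in the knockout, a difference of 0.26. At 1.195-fold it was the measurable carrier nearest to the 1.2-fold threshold from outside. Its paralog Slc25a39, the other glutathione carrier, was at 9.74 and 9.86, ranks 513 and 453, a difference of 0.12. The mitoferrins import iron for heme and iron-sulfur clusters. Slc25a28, the form of most tissues, was at 8.06 and 8.19 (0.12) and Slc25a37, the form of developing red cells, at 7.66 and 7.58 (-0.08). The glutathione carriers thus had the same sign and the mitoferrins did not, but these directions were not tested. Of the red blood cell list 2 of 9 genes were measured here, Slc4a1, which intercalated cells also express, at 6.58 and 6.76, and Epb42 at 3.32 and 3.22; the part of blood in these values was not tested.

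Of the classical uncoupling proteins, Ucp1 and Ucp3 were dim, while Ucp2 had no value here and its level is unknown. Ucp1, the heat-producing proton channel of brown fat, read 3.91 in wild type and 3.71 in the knockout, and Ucp3, the form of muscle, 3.05 and 3.26. Both lay under the medians of the arrays, a level that may be background, so their differences, -0.20 and 0.20, say nothing of direction. Of 9 adipocyte markers measured, 1 (Fabp4, which endothelial cells also express) was at or above the floor, at 8.40 and 8.34, and of 7 skeletal muscle markers 0 were. The relative with a known place in kidney was measurable: Slc25a30, named kidney mitochondrial carrier protein, was at 8.35 and 8.30, a difference of -0.05. The brain-associated relatives Slc25a27 (5.09 and 4.80) and Slc25a14 (4.33 and 4.20) were below the floor.

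The last group holds genes to which no substrate was assigned here. The outer membrane protein Slc25a46, involved in mitochondrial shape, was at 9.07 in wild type and 9.002 in the knockout. Slc25a48 was at 7.09 and 6.94, the lowest difference among the measurable genes of the group at -0.15. Slc25a45 was at 7.31 and 7.28, Slc25a35 at 6.69 and 6.73, and Slc25a34 at 6.25 and 6.28. Slc25a35 also shares a further probe set with the gene Rangrf, which read 4.50 and 4.66 and was not assigned. The median of these 5 was -0.04.

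In all, 15 carriers were below the floor, between 2.63 and 5.95. Of these, 11 were lower and 3 higher in the knockout (Slc25a24 was equal), with a median of -0.10, whereas 52.0% of the 14509 genes below the floor were lower, with a median of -0.01. For 8 of the 15 the values of both pools lay below the arrays' medians, so neither value is known to exceed the background. The low readings included Slc25a47 (5.34 and 5.24), known from liver, Slc25a43 (4.28 and 4.03), Slc25a53 (3.30 and 3.25) and Slc25a54 (3.07 and 2.92). Slc25a43 is the RefSeq neighbour of the bright Slc25a5 on chromosome X, and Slc25a41 is that of Slc25a23 on chromosome 17.

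**Figure D2:**
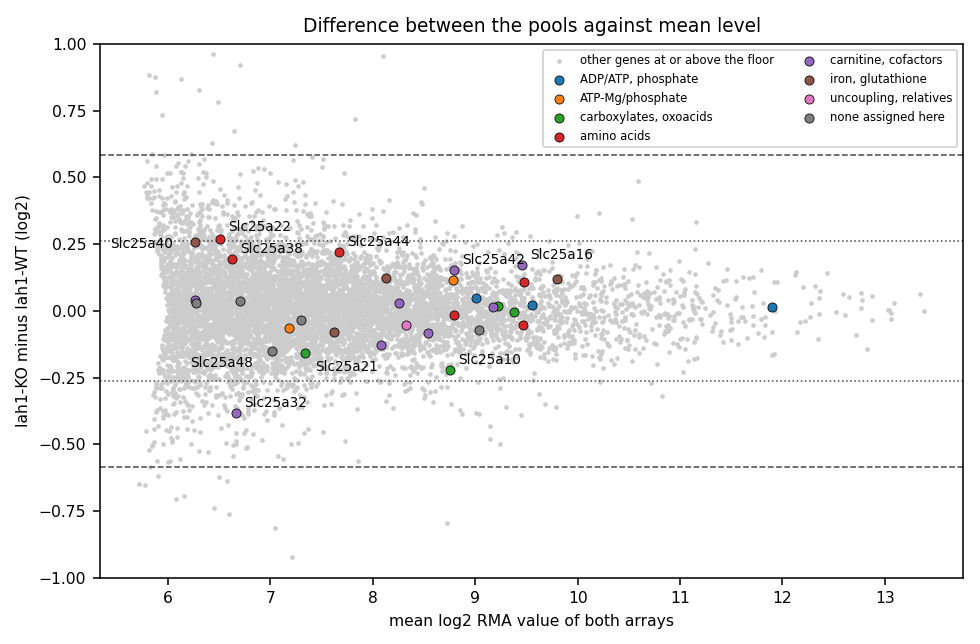
Difference between the pools (vertical axis, Iah1-KO minus Iah1-WT, log2) against the mean log2 RMA value of both arrays (horizontal axis) for the 33 measurable carriers, coloured by substrate, and for the other measurable genes in grey; dotted lines mark 1.2-fold and dashed lines 1.5-fold, and genes beyond 1 unit are not drawn. Slc25a32 at -0.38 and Slc25a22 at 0.27 are the carriers past the dotted lines, and the grey cloud is wider at dim levels, where both lie.

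Dim carriers had the larger median size of difference, though some of them differed little. The 20 carriers with a mean of at least 8 lay between -0.22 and 0.17, with a median size of difference of 0.06 and 0 past 1.2-fold. The 13 with a mean under 8 lay between -0.38 and 0.27, with a median size of 0.15 and 2 past 1.2-fold. Over all measurable genes the median sizes were 0.07 and 0.10, so dim genes scattered more over the array as a whole too; whether carriers did so more than others was not tested. Slc25a32, Slc25a22, Slc25a40 and Slc25a38 all lay in the dim part, while Slc25a10 at 8.87 and 8.65 lay in the bright part. The dim part also held small differences, such as those of Slc25a33 (0.04), Slc25a34 (0.03), Slc25a35 (0.04) and Slc25a45 (-0.04).

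Genes that work beside the carriers were described in the same way. Of transporters of other families, 15 were measurable, with a median of 0.07, 9 above 0 and 6 below, 0 higher and 1 lower by at least 1.2-fold. The lower one was Sfxn2, a sideroflexin of the inner membrane, at 8.66 in wild type and 8.35 in the knockout (-0.31, robust SD 0.11). Micu3, a regulator of the calcium uniporter, was at 6.33 and 6.57 (0.24). Among outer membrane channels and relatives, a median of -0.03 over 6 genes, Mtch2 differed by -0.13 and the porin Vdac3 by -0.12.

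The machinery that inserts carriers into the inner membrane held 7 measurable genes with a median of -0.07, of which 2 lay above 0 and 5 below. Timm9, a small chaperone that escorts carriers across the space between the membranes, was at 6.79 in wild type and 6.37 in the knockout. Its difference of -0.43, beside a robust SD of 0.15, made it the 1 measurable gene of this list past 1.2-fold. Timm29, of the insertion complex, differed by 0.19. Timm10, the partner of Timm9 and below the floor, was at 5.70 and 5.87, and Timm10b, also below it, at 5.80 and 5.46.

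Genes that share substrates with the carriers had list medians between -0.01 and 0.07, though single genes differed more. All 4 enzymes of the malate-aspartate shuttle were above 0, from 0.05 (Mdh2) to 0.08 (Got1), with Got2 at 0.07, while the shuttle's carriers Slc25a11, Slc25a12 and Slc25a13 were at -0.01, -0.02 and -0.05. All of these lay within 1 robust SD. Carnitine shuttle genes had a median of 0.02 over 4, with the carnitine importer Slc22a5 at 0.12 and Cpt2 at -0.07. Iron-sulfur cluster and heme synthesis genes had a median of -0.01 over 9, with 1 higher by at least 1.2-fold. This was Lyrm4, a partner of the cysteine desulfurase (8.05 and 8.34), with a difference of 0.29 beside a robust SD of 0.10. Lyrm4 had 2 probe sets, of which only the brighter is given here. Alas1, the first enzyme of heme synthesis, was at 0.20 beside a robust SD of 0.09. ATP synthase genes had a median of 0.00 over 12, with Atp5l at 0.14 and Atp5d at -0.12, and 0 past 1.2-fold. Genes of the TCA cycle had a median of -0.01 over 15, with Sdhd at 0.15 and Suclg1 at -0.14, and 0 past 1.2-fold.

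PPAR alpha targets outside the carrier family, a list drawn up with their lower values already known, had a median of -0.22 over 10 genes. Of these, 8 were below 0, against 3653 of all 7671 measurable genes, and 5 lower by at least 1.2-fold, against 3.77%. Since the lower values were known when the list was drawn up, these counts are no result about PPAR alpha targets. Cyp4a14, a fatty acid hydroxylase, differed by -1.72, and Pdk4, the kinase that shuts off pyruvate dehydrogenase, by -0.56. Among carriers, the PPAR alpha targets Slc25a20 and Ucp3 were at -0.13 and below the floor. Slc25a20 lay between Vnn1 (-0.18) and Acadm (-0.10) of that list, whose genes Cpt1a (0.01) and Plin2 (0.05) were above 0. No test sets Slc25a20 apart from the other carriers.

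**Figure D3:**
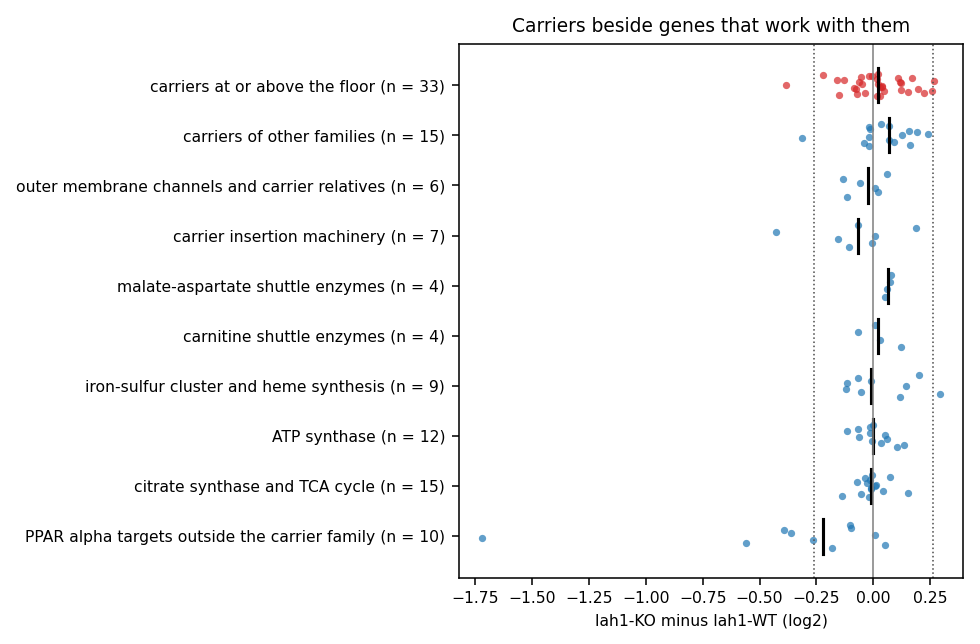
Difference between the pools (horizontal axis, Iah1-KO minus Iah1-WT, log2) of each measurable gene of the carrier family (red) and of 9 related lists (blue). The n genes stand beside each name, black bars are medians and dotted lines mark 1.2-fold. The carriers centre on 0.02. The list of PPAR alpha targets, drawn up with their lower values already known, has the lowest bar, with a median of -0.22.

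Markers of the proximal tubule were level between the pools. The 12 proximal tubule genes had a median of 0.00, with 6 above and 6 below 0, and 0 were past 1.2-fold. Loop of Henle genes had a median of -0.14 over 4, distal tubule genes of -0.01 over 4, principal cell genes of 0.16 over 5, intercalated cell genes of -0.09 over 5, podocyte genes of 0.06 over 2 and macrophage genes of 0.26 over 4. Past 1.2-fold were the water channels Aqp2 (0.49) and Aqp4 (0.57) of principal cells and the proton pump subunit Atp6v1g3 of intercalated cells (-0.81). So were Lyz2 (0.63) and Cx3cr1 (0.41) of macrophages, and Atp6v1g3 and Lyz2 were past 1.5-fold too. Cx3cr1, at 5.75 in wild type and 6.16 in the knockout, passed the floor through the knockout alone. It entered the macrophage median only for that reason. Of 5 intercalated cell genes 2 were above 0, Slc4a1 (0.18) and Atp6v0d2 (0.03), and of 5 principal cell genes 1 was below 0, Avpr2 (-0.02). Of macrophage genes, Csf1r differed by 0.11 and C1qb by -0.01. Below the floor, Adgre1 differed by -0.73, Cd68 by -0.23 and C1qa by 0.04, so the macrophage list had no common direction. The part of these cells in the carrier differences was not tested.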

How the data were processed

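Kidney RNA pooled from 3 male mice per genotype was hybridised to 1 Affymetrix array each. The deposited log2 values come from RMA, which the authors ran in Expression Console 1.3.0 (Affymetrix) according to the submitters' processing notes. Its quantile normalization forces the arrays to a common distribution, so a shift of most genes would not show. Apart from that, true differences of dim probe sets are compressed, and their readings also scatter more. The build behind the probe annotation was not given in the sources used here.

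Of 41345 probe sets, 23521 carried exactly 1 symbol and were used, 1814 several and 16010 none; the brightest probe set stood for a gene. Computation used Python 3.11.15, numpy 2.4.6, pandas 2.3.3 and statsmodels 0.14.6, and was checked on data with known answers. The robust SD is 1.4826 times the median absolute deviation over the 500 measurable genes nearest in mean level. Alternatives were a floor of 5, 7 or none, a floor on the mean, centring, loess (span 0.3), the mean over probe sets, and shared probe sets.

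Members were taken by the naming rule, which uses no measured value, but the rule and the lists were set with earlier results of these data known. All measurable members are named, and of each related list the 2 measurable genes with the largest differences and any measurable one past 1.5-fold. Others named for comparison (Timm10, Timm10b, Got1, Mdh2, Vnn1, Acadm, Cpt1a, Plin2 and markers) were chosen after their values were seen. With 1 array per genotype, the number of arrays limits the precision.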

Additional observations from a re-analysis of the deposited data

How the results depend on the processing

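No paired analysis was possible because each genotype had 1 array, and no array could be left out. The median difference of the carriers, 0.02, was -0.011 with no floor, where dim genes enter. The count of carriers higher by at least 1.2-fold, 1, was 0 with a floor of 7, after centring and after loess. The count lower by at least 1.2-fold, 1, was 0 with a floor of 7, 2 with a floor of 5 and 3 with no floor. Fewer or more genes pass the other floors by construction. Centring moved each of the 33 differences by -0.01 and loess by between -0.02 and 0.01. Under both, every difference stayed within 1 robust SD of the reported value. Averaging the probe sets of a gene and adding shared probe sets could not change the carriers' differences, since each had 1 probe set of its own that was also its brightest. The 64 alternative medians of substrate groups include those under averaging and shared probe sets, which could not move. Of the 64, 2 moved by more than the robust SD over genes divided by the root of the number of genes. Both were for amino acids (0.05 with a floor of 7, 0.01 with no floor). Of 54 medians of the related lists 1 did (transporters of other families, 0.01 with a floor of 7).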
